A study of Mus musculus with 18 samples.

Results

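The comparison described here set the testes of streptozotocin-treated mice that had received a faecal microbiota transplant against control testes, pooling both transplant groups, and asked which genes had shifted alike in both. Its members were 9 of the 18 RNA-seq libraries of the series: 3 control libraries, 3 labelled STZ+AOS10mg/kg-FMT (AOS-transplant group) and 3 labelled STZ+control-FMT (control-transplant group). All were whole testis of ICR mice, an outbred strain, aged 10 weeks. Streptozotocin (STZ) kills pancreatic beta cells and is a standard agent for inducing diabetes in rodents. AOS was read as alginate oligosaccharide, short sugar chains cut from algal alginate, given at 10 mg/kg, and FMT as faecal microbiota transplant. The labels do not say whether the AOS dose went to the donor or to the recipient, and they give no dose of STZ and no treatment for the control mice. Nor is it stated that the control mice received a mock transplant, so STZ and the transplant cannot be told apart in the comparison with control. The other groups used, with 3 libraries each, were STZ, STZ+AOS10mg/kg and AOS 10mg/kg, none of them transplanted. Nothing in the labels says that the libraries of a group came from separate animals, so the p-values here speak only of the spread among libraries, which may be technical.

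A testis holds tubules in which Sertoli cells carry germ cells from spermatogonia through meiosis to spermatids, whose DNA is finally packed by transition proteins and protamines. Between the tubules lie Leydig cells, which make testosterone from cholesterol, and macrophages, which present antigen on MHC class II molecules. Tissue kallikreins are secreted serine proteases encoded in a dense gene cluster, and several of them have been described in mouse Leydig cells.

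Levels are in FPKM (fragments divided by transcript length and library depth), as deposited. A difference (log2FC) is between group means of log2(FPKM + 1), which understates the change of genes with low values. In limma, a gene was called where its Benjamini-Hochberg adjusted p was under 0.05. Of 20985 genes in the table, 14164 had at least 1 FPKM in at least 3 of the 18 libraries and were tested. FPKM values carry no read counts, so the depth is unknown and no counting error is given. The sum over all genes was 588160 to 609157 FPKM in the 9 libraries, and replicates of a group correlated at 0.9782 to 0.9946 across genes in the whole series.

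The testis identity of the libraries was plain from their markers. All 28 elongating spermatid genes, all 39 meiotic genes and 32 of 35 Sertoli cell genes passed the filter on low values, and Prm1 alone, the gene of a protamine, lay between 11650 and 15122 FPKM in the 9 libraries. Control replicate 3 and control-transplant replicates 2 and 3 stood apart. On the first principal component of the 15 libraries other than STZ (20.4% of the variance) they lay at 17.1, 23.1 and 16.2, against −8.3 to 2.7 for the others. Crisp1, a secreted protein gene of the epididymis, led this component, with 158.8, 255.7 and 33.6 FPKM in these libraries and at most 7.59 FPKM in the other 12. Summed over the epididymis list (5 of 15 genes tested), levels were 285 to 499 FPKM in control, 312 to 322 FPKM in AOS-transplant and 402 to 893 FPKM in control-transplant libraries. Cst8 made up most of the sum in control and AOS-transplant libraries, at 240 to 274 FPKM and 255 to 272 FPKM. In the AOS-transplant libraries Crisp1 was at 0.05 to 0.5 FPKM and Gpx5 at 0 to 0.04 FPKM, so neither carried the sum there. The haemoglobin gene Hba-a1 lay at 237 to 538 FPKM in the control-transplant group, at 71.1 to 144 FPKM in the AOS-transplant group and at 85.6 to 110 FPKM in control. Some adipose genes stood higher in the control-transplant group too. Cfd, which encodes the adipocyte protease adipsin, was at 16.3 to 28.7 FPKM there, at 1.48 to 15.4 FPKM in the AOS-transplant group and at 1.42 to 6.28 FPKM in control, but the adipose lipase genes Lipe and Pnpla2 differed from control by 0.02 and 0 there. The adipose list (11 of 13 genes tested, 0 of them without overlap over the 6 transplant libraries) summed to 281 to 309 FPKM in control, 284 to 347 FPKM in AOS-transplant and 339 to 382 FPKM in control-transplant libraries. Lipe and Pnpla2, at 124 to 130 and 127 to 131 FPKM in control, made up most of this sum, which thus says little of the other adipose genes. Control-transplant replicate 1 held some epididymal transcripts as well, with Gpx5 at 5.71 FPKM and Defb20 at 2.9 FPKM. In control and AOS-transplant libraries these 2 genes reached at most 0.09 and 0.25 FPKM. The part of these tissues in the results below was not tested beyond leaving out control replicate 3 and control-transplant replicates 2 and 3. These are called the 3 libraries with epididymal transcripts below, and control-transplant replicate 1 was kept.

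Pooled transplant testes differed little from control testes in most genes, and no gene was shifted alike in both transplant groups by the test. With all 18 libraries in the model, 0 of 14164 genes (0%) were called, with a smallest adjusted p of 0.0701, and 951 genes (6.71%) had an unadjusted p under 0.05, 595 higher and 356 lower. The median log2FC over all genes was 0.0012. In 13427 genes (94.8%) the difference was under 0.25 in size, and in 23 it exceeded 1. The 95% interval of the difference stayed within a 2-fold change of FPKM + 1 for 13893 genes (98.1%) and within a 1.5-fold change for 13284 (93.8%). For genes with low values this does not bound the fold change of FPKM itself. Among the 8927 genes with a mean of at least 5 FPKM the shares were 98.7% and 96.3%. On its own, the AOS-transplant group gave 0 calls against control (0%; 927 at an unadjusted p under 0.05) and the control-transplant group also 0 (0%; 883). These comparisons share the 3 control libraries.

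**Figure D1:**
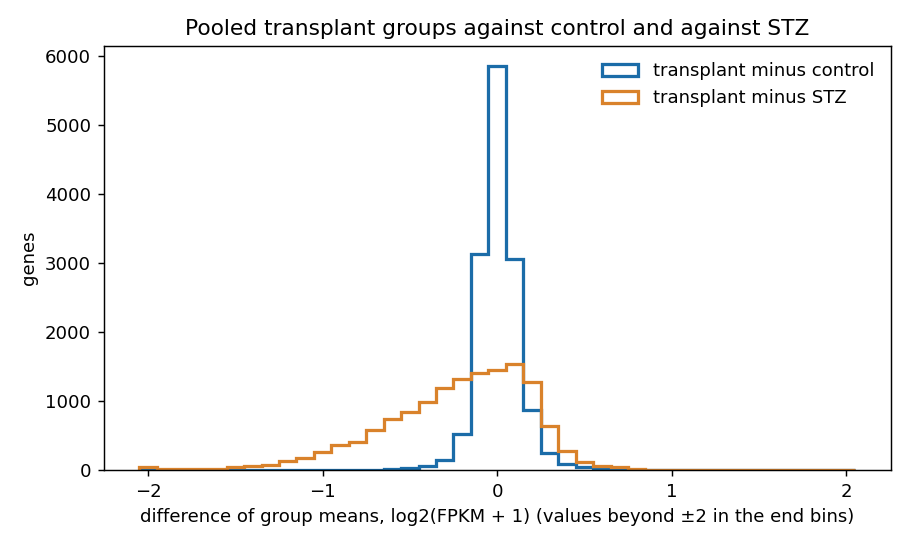
Number of genes (y axis) by difference of group means on the log2(FPKM + 1) scale (x axis) for the 14164 genes tested, with the pooled transplant groups against control in blue and against STZ in orange. Against control 94.8% of the genes lie within 0.25 of no difference, while against STZ the distribution is broad, with 49.4% within 0.25 and a median of −0.16.

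A second, untested measure counted genes whose 6 transplant libraries all lay on one side of the 3 control libraries. There were 723 such genes (5.1% of those tested), 403 higher (2.85%) and 320 lower (2.26%). That split depended on the scaling, with 322 higher and 390 lower after median centring and 357 and 416 after quantile normalization. In 37 genes (0.261%) the transplant groups lay on opposite sides of control, each without overlap. Leaving out the 3 libraries with epididymal transcripts gave 2815 genes, where fewer libraries have to be kept apart.

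The call depended on which libraries gave the estimate of spread. When the 9 compared libraries alone were fitted, 7 genes were called (0.0494%), all of them without overlap in every library: Klk1b21, Klk1b24, Klk1b27, Bhmt, Sc5d and Tceal9 lower and H2-Aa higher in the transplant testes. When the 3 STZ libraries were left out of the full model, an alternative added after seeing the data, 5 were called (0.0353%): the same 3 kallikreins and Bhmt lower, and Grb7 higher. The fold changes were the same in all 3 fits. These genes, and the others given below unless stated, were chosen after their values were seen.

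The kallikrein genes Klk1b21, Klk1b24 and Klk1b27 held the largest shifts among genes without overlap between transplant and control libraries. All lie in the Klk1 cluster on mouse chromosome 7 (GRCm38, plus strand): Klk1b27 (ENSMUSG00000063177.6) at chr7:44052290-44056712, Klk1b21 (ENSMUSG00000066516.5) at chr7:44102328-44106583, Klk1b22 at chr7:44112673-44116922 and Klk1b24 (ENSMUSG00000063713.7) at chr7:44188236-44192455. Klk1b8, at chr7:43950664-43954941, did not share the shift. The 100 bases before the annotated start of these 5 genes are shown because 4 of them were low together in every transplant library and the fifth was not. They are RefSeq sequences of GRCm38.p6, 5′ to 3′, in lower case, with capitals marking TTTAAA, a match to the TATA-like motif. All 5 genes looked up had an entry.
Klk1b21 (chr7:44102192-44102291, +): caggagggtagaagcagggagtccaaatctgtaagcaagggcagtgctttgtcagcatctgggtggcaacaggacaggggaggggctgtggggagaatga
Klk1b24 (chr7:44188136-44188235, +): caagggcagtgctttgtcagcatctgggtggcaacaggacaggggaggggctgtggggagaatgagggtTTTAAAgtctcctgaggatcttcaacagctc
Klk1b27 (chr7:44052190-44052289, +): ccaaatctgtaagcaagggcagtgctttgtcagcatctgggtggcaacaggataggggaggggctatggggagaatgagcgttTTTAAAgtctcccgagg
Klk1b22 (chr7:44112573-44112672, +): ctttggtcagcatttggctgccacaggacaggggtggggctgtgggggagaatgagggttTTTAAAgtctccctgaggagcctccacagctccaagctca
Klk1b8 (chr7:43950566-43950665, +): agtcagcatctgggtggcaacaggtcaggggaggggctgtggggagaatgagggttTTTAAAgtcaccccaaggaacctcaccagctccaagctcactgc

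The motif TTTAAA, which reads the same on both strands, was found in 4 of the 5 windows and in 4.39% of the 32851 windows of 100 bases before all RefSeq starts. In Klk1b21 these letters were not in the window, whose RefSeq start lies upstream of the GENCODE start. Aligned to each other, the windows of Klk1b21 and Klk1b24 were identical over the 65 bases they share, while those of Klk1b24 matched Klk1b22 at 92% of 88 bases and Klk1b8 at 90.7% of 86. The transcripts are close copies as well. Klk1b21 and Klk1b24 were identical at 94.1% of 868 aligned bases, and between 29.1% (Klk1b21) and 32.1% (Klk1b24) of their 50-base words occur in another Klk1 family transcript. For Klk1b27 this share was 14.3%. How shared reads were counted is not given in the sources used here, so the split of reads among these copies is uncertain.

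Klk1b21 was at 26.5, 21.6 and 15.95 FPKM in the control libraries, at 3.89, 1.87 and 0.67 FPKM in the AOS-transplant group and at 2.41, 1.44 and 3.56 FPKM in the control-transplant group. The lowest control library thus lay far above the highest transplant library. The log2FC was −2.82 (SE 0.49), with an adjusted p of 0.0899 in the limma fit of 18 libraries, 0.02 with 9 and 0.000949 with 15. Klk1b24 was at 29.6, 23.4 and 13.7 FPKM in control, at 4.42, 2.49 and 1.06 FPKM in the AOS-transplant group and at 3.27, 2.40 and 3.12 FPKM in the control-transplant group (log2FC −2.61, SE 0.42, limma adjusted p = 0.0701, 0.02 and 0.000949). Klk1b27 was at 22.4, 16.8 and 10.7 FPKM in control, 3.3, 1.48 and 0.95 FPKM in the AOS-transplant group and 3.47, 2 and 2.27 FPKM in the control-transplant group (log2FC −2.44, SE 0.39). In these genes control replicate 1 was the highest and replicate 3 the lowest of the controls, and the transplant groups overlapped each other.

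Klk1b22 lay lower on the scale, at 4.26, 3.43 and 0.92 FPKM in control and at 0 to 0.46 FPKM in the 6 transplant libraries (log2FC −1.60, SE 0.27, limma adjusted p = 0.0845). It was the gene called when the 3 libraries with epididymal transcripts were left out (−2.08, adjusted p = 0.0447). Klk1b16 followed the same pattern at 1.10 to 2.46 FPKM in control and 0.27 to 0.81 FPKM with transplant (−0.83, SE 0.15). The other members behaved differently. Klk1b8, the most abundant of those named, was at 75.1 to 85.8 FPKM in control and 70.3 to 90.4 FPKM in the transplant libraries (−0.04, SE 0.15). For Klk1b9 the means were 13.9 ± 3.44 FPKM in control, 8.97 ± 0.94 in the AOS-transplant and 12.5 ± 4.33 in the control-transplant group (SD, n = 3), with overlap, and Klk1b3 differed by −0.13 (SE 0.16). Of the 21 kallikreins listed 12 passed the filter on low values, and the 5 named as low were those without overlap, with 0 higher (2.26% and 2.85% of all genes tested lay lower and higher in this way). Klk1b22 and Klk1b16 reached 1 FPKM only in control and AOS libraries and so passed the filter only where they are high. Nothing is therefore read from the count of 5, nor from the adjusted p and the call of Klk1b22.

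Klk1b21, Klk1b24 and Klk1b27 were also below every control library in every library of the 3 groups without transplant. This did not hold for the whole family: Klk1b8 was at 90.04 to 101.9 FPKM with AOS alone, above its control range of 75.1 to 85.8 FPKM. Klk1b24 was at 6.03, 9.20 and 7.27 FPKM with AOS alone, between the control and the transplant libraries, and at 0.44, 0 and 0.53 FPKM in STZ + AOS, below every transplant library. In STZ it spread widely, at 0.78, 3.66 and 9.59 FPKM. Against STZ + AOS, a comparison that uses no control library, Klk1b24 was higher in the transplant groups by 1.48 (SE 0.42; limma adjusted p = 0.466 with 18 libraries and 0.0367 with 15). Against STZ the difference was −0.29 (SE 0.42, adjusted p = 0.567).

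**Figure D2:**
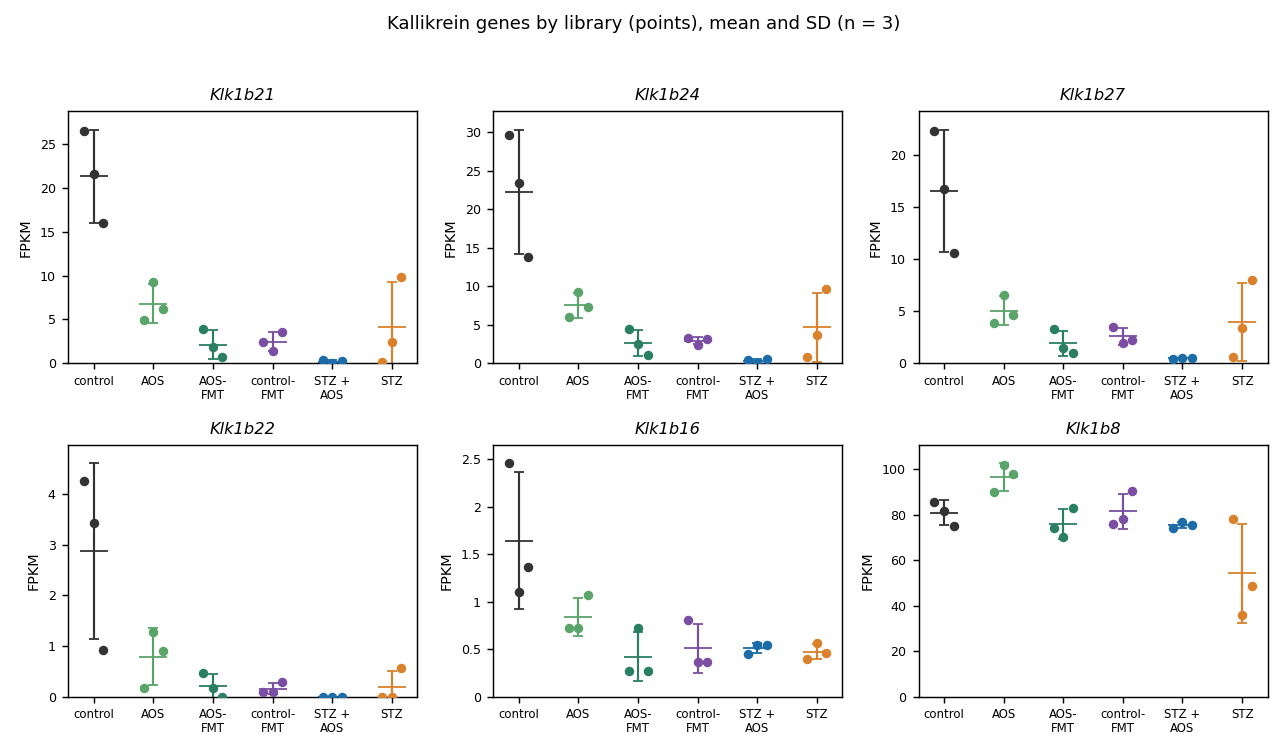
FPKM (y axis, linear from 0) of 6 kallikrein genes in each library (points) of the 6 groups (x axis; FMT marks the transplant groups), with the mean (bar) and SD (n = 3). Klk1b21, Klk1b24, Klk1b27, Klk1b22 and Klk1b16 have every transplant library below every control library, whereas for Klk1b8 the ranges of 75.1 to 85.8 and 70.3 to 90.4 FPKM overlap.

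Bhmt (ENSMUSG00000074768.6, chr13:93616675-93637961, minus strand) encodes betaine-homocysteine methyltransferase, which turns homocysteine back into methionine. It was at 65.35, 62.04 and 49.97 FPKM in control, 26.86, 29.95 and 29.88 FPKM in the AOS-transplant group and 32.34, 33.65 and 25.51 FPKM in the control-transplant group. The transplant groups lay together at about the same level and well below control. The log2FC was −0.97 (SE 0.33), with a limma adjusted p of 0.602 from 18 libraries, 0.02 from 9 and 0.0158 from 15. STZ + AOS libraries were lower still, at 12.9 ± 0.993 FPKM (SD, n = 3), and the transplant groups exceeded them by 1.14 (SE 0.33; limma adjusted p = 0.466 from 18 libraries and 0.00471 from 15). In STZ the gene was at 8.70, 40.5 and 40.1 FPKM. It was the 1 gene without overlap among 18 tested genes of methionine and one-carbon metabolism (5.56%, against 2.26% of all genes lower), whose median log2FC was 0.011.

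Genes of the Leydig cell and of cholesterol synthesis included several that were lower in both transplant groups by small amounts, and none was called in the 18-library fit. Of 29 Leydig cell genes 5 were lower without overlap (17.2%, against 2.26% of all genes) and 2 higher (6.9%, against 2.85%), with a median log2FC of −0.205. Hsd11b1, among those higher, lay below 1 FPKM in every library outside STZ, so nothing is read from the share of 6.9%. Of 23 cholesterol synthesis genes 5 were lower (21.7%) and 1, Pmvk, was higher (4.35%), with a median of −0.111. Less RNA per Leydig cell and fewer Leydig cells cannot be told apart in whole tissue. The summed level of the Leydig list was 4671 to 5260 FPKM in control, 4115 to 4665 FPKM in AOS-transplant and 3967 to 5086 FPKM in control-transplant libraries.

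Among the steroidogenic enzymes, Cyp17a1, which makes androgen precursors, was at 375, 307 and 362 FPKM in control, at 243, 285 and 185 FPKM in the AOS-transplant group and at 261, 253 and 230 FPKM in the control-transplant group (log2FC −0.52, SE 0.45, limma adjusted p = 0.891). Cyp11a1, which cuts the side chain of cholesterol, was at 132.9 ± 15.2 FPKM in control, 94.1 ± 17.1 in the AOS-transplant and 92.9 ± 6.48 in the control-transplant group (SD, n = 3; −0.51, SE 0.49). Every transplant library was below every control library for both genes. So was every library of the AOS group, which had received neither STZ nor a transplant, at 237 to 290 FPKM for Cyp17a1 and 76.5 to 109 FPKM for Cyp11a1. Both were lower again in STZ + AOS, with means of 125.2 and 47.2 FPKM, and Cyp11a1 was called against that group with 15 libraries (log2FC 1.03, limma adjusted p = 0.0371; 0.665 with 18). Cyp27a1, which oxidizes the cholesterol side chain, was also lower without overlap.

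Other Leydig cell genes did not move together. Insl3, the hormone gene that marks Leydig cells, was at 3144 ± 208 FPKM in control, 2888 ± 130 in the AOS-transplant and 2970 ± 549 in the control-transplant group (SD, n = 3; −0.11, SE 0.43). Star, the carrier of cholesterol into mitochondria, was at 37.6 to 52.8 FPKM in control and 24.8 to 41.6 FPKM with transplant, with overlap (−0.45, SE 0.34). Hsd3b1, the dehydrogenase of the same pathway, was at 71.2 ± 9.17, 79.2 ± 11.4 and 94.8 ± 30.3 FPKM in the 3 groups (0.26, SE 0.33). The prolactin receptor gene Prlr, the desaturase gene Fads1 and the glutathione transferase gene Gsta3 were lower without overlap (−0.42, −0.58 and −0.63), and Hsd11b1 and Ptgds higher (0.26 and 0.41). Hsd11b1 was at only 0.16 to 0.22 FPKM in control and 0.37 to 0.63 FPKM with transplant. Fads1 and Gsta3 were also below every control library with AOS alone, at 25.2 to 27.9 and 21.7 to 26.2 FPKM.

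In sterol synthesis, Sc5d, a desaturase near the end of the pathway (chr9:42251595-42264256, minus strand), was at 8.64, 8.32 and 10.3 FPKM in control, 5.38, 5.50 and 5.41 FPKM in the AOS-transplant group and 5.33, 6.17 and 5.19 FPKM in the control-transplant group. Its log2FC was −0.63 (SE 0.19), with a limma adjusted p of 0.54 from 18 libraries, 0.0235 from 9 and 0.113 from 15. Msmo1, a methylsterol oxidase, was at 22.6 ± 2.08 FPKM in control, 13.3 ± 1.70 in the AOS-transplant and 14.9 ± 2.28 in the control-transplant group (SD, n = 3; −0.65, SE 0.28). Dhcr7, the reductase that ends the pathway, Hmgcs1, the synthase near its start, and Lss, which closes the sterol rings, differed by −0.34, −0.30 and −0.23, each without overlap. These 5 genes were also below control in every library of the AOS group, which had received neither STZ nor a transplant. Outside the lists, Apoc1, an apolipoprotein gene, was at 78.4 ± 12 FPKM in control and at 47.03 ± 10.97 and 47.3 ± 4.84 FPKM in the AOS-transplant and control-transplant groups (SD, n = 3; −0.73, SE 0.40). Gstm1, a glutathione transferase gene of the antioxidant list, was lower without overlap (log2FC −0.36, SE 0.19).

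**Figure D3:**
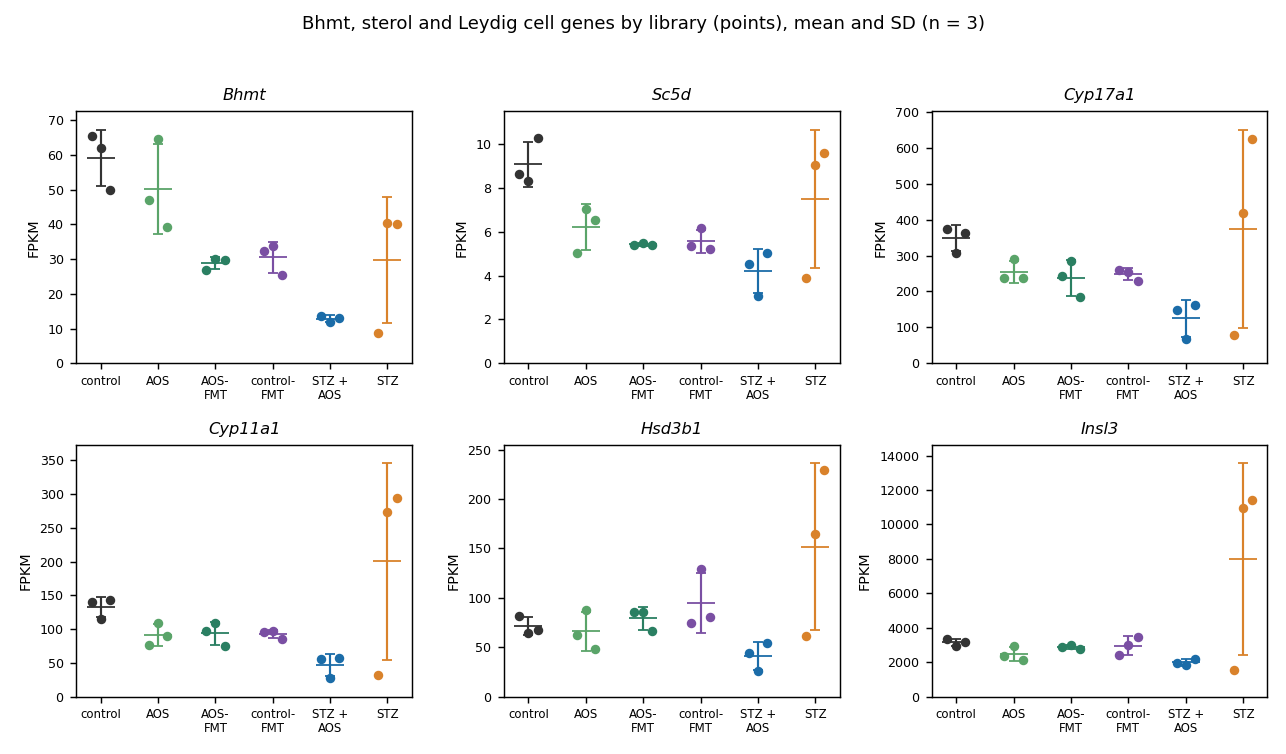
FPKM (y axis, linear from 0) of Bhmt, the sterol gene Sc5d and 4 Leydig cell genes in each library (points) of the 6 groups (x axis), with the mean (bar) and SD (n = 3). Bhmt, Sc5d, Cyp17a1 and Cyp11a1 have the 6 transplant libraries below the 3 control libraries, Hsd3b1 and Insl3 do not, and the STZ libraries spread over most of the range.

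Several genes of antigen presentation on MHC class II lay higher in the transplant groups. H2-Aa (chr17:34282744-34287823, minus strand), which encodes the alpha chain of a class II molecule, was at 5.81, 4.83 and 5.81 FPKM in control, at 8.97, 8.55 and 9.63 FPKM in the AOS-transplant group and at 8.91, 7.48 and 9.03 FPKM in the control-transplant group. Its log2FC was 0.59 (SE 0.28), with a limma adjusted p of 0.743 from 18 libraries, 0.0444 from 9 and 0.384 from 15. Cd74, the invariant chain that accompanies class II molecules, was at 9.65, 10.2 and 9.30 FPKM in control, 15, 17.01 and 16.91 FPKM in the AOS-transplant group and 18.4, 12.3 and 17.8 FPKM in the control-transplant group (0.67, SE 0.27, limma adjusted p = 0.673, and 0.135 from 9 libraries). H2-DMa, a chain of the peptide exchange factor, was at 5.82 ± 0.226, 7.93 ± 0.267 and 7.92 ± 0.754 FPKM in these groups (SD, n = 3; 0.39, SE 0.08, adjusted p = 0.331). No control library reached the lowest transplant library for any of the 3.

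Of 6 class II genes tested 3 were thus higher without overlap (50%, against 2.85% of all genes) and 0 lower, with a median of 0.359. H2-Ab1, the partner chain of H2-Aa, was higher without overlap only in the AOS-transplant group, at 12.8 to 14.8 FPKM against 7.86 to 9.12 FPKM in control and 6.37 to 10.7 FPKM in the control-transplant group, and the difference between the transplant groups (0.61) was not called (limma adjusted p = 0.804). H2-DMa lay above its highest control library (6.01 FPKM) also in every AOS library (6.39 to 7.73 FPKM) and every STZ + AOS library (6.37 to 8.29 FPKM). Its level in the transplant groups differed from STZ by −0.008. The AOS group without STZ held 1 library at a level above all transplant libraries for H2-Aa (11.3 FPKM) and Cd74 (20.4 FPKM), and 2 below all of them. STZ libraries stood far higher, at 43.0 ± 17.2 FPKM for H2-Aa and 80.0 ± 34.1 FPKM for Cd74 (SD, n = 3), and both genes were lower in the transplant groups than in STZ (log2FC −2.09 and −2.15, adjusted p = 1.28e-05 and 6.83e-06).

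Macrophage markers were measured beside these genes. Of 20 tested, Cd163, Lyz1 and Lyz2 were higher without overlap (15%, against 2.85% of all genes) and Fcer1g lower (5%, against 2.26%), and the list median was 0.042. Cd163 was at only 0.2 to 0.26 FPKM in control and 0.32 to 0.59 FPKM with transplant. It reached 1 FPKM only in STZ libraries, so nothing is read from the share of 15%. Lyz2, a lysozyme gene, was at 16.8, 18.7 and 18.3 FPKM in control, 20.1, 21.0 and 23.9 FPKM in the AOS-transplant group and 24.2, 19.5 and 25.9 FPKM in the control-transplant group (0.30, SE 0.16). The summed level of the list was 426 to 437 FPKM in control, 431 to 447 FPKM in AOS-transplant and 439 to 489 FPKM in control-transplant libraries. Aif1 alone made up most of it, at 323 to 343, 316 to 345 and 337 to 360 FPKM in these groups. Against STZ, Aif1 was higher in the transplant groups (0.34), while 18 of the 20 markers were lower. The sum thus says little of the other markers. Like Cd163, Itgam reached 1 FPKM only in STZ libraries, so nothing is read from the count of 18. Of 13 lymphocyte markers 1 passed the filter on low values, and the sum of the list was 4.83 to 7.30 FPKM in control and 4.29 to 7.17 FPKM in the transplant libraries. The part of these cells in the class II shift was not tested.

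**Figure D4:**
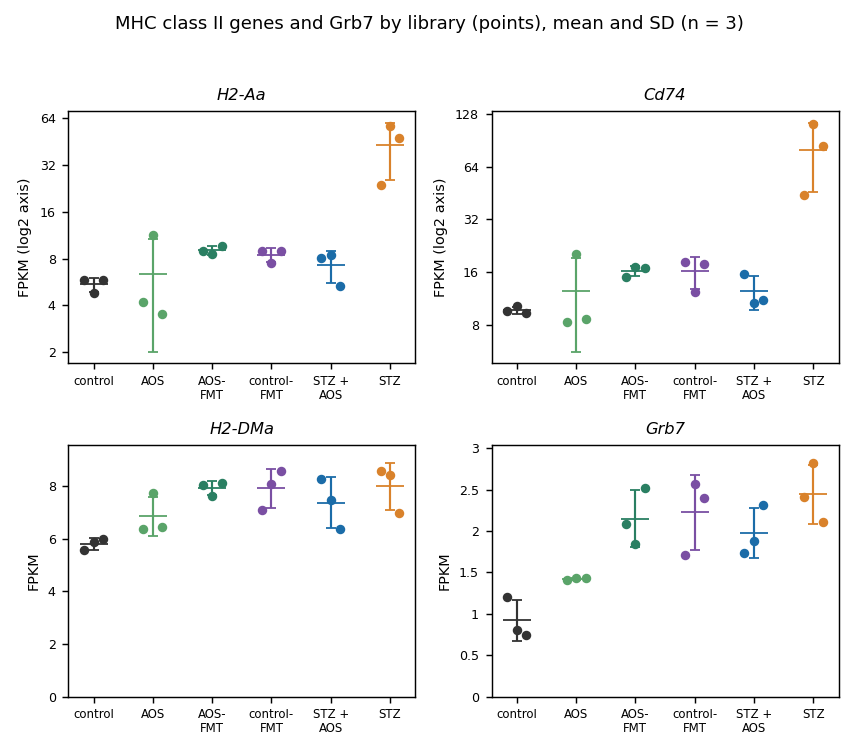
FPKM of 3 MHC class II genes and Grb7 in each library (points) of the 6 groups (x axis), with the mean (bar) and SD (n = 3); the y axis is on a log2 scale for H2-Aa and Cd74 and linear from 0 for H2-DMa and Grb7. Every transplant library lies above every control library for all 4 genes, and the STZ libraries of H2-Aa and Cd74 lie above all others.

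Of single genes, Grb7 (chr11:98446394-98455373, plus strand), an adaptor that binds receptor tyrosine kinases, had the smallest p in the pooled comparison. It was at 1.2, 0.81 and 0.75 FPKM in control, 2.09, 1.84 and 2.52 FPKM in the AOS-transplant group and 1.71, 2.57 and 2.40 FPKM in the control-transplant group. In every library outside the control group it was at 1.41 FPKM or more, the AOS group included (1.41 to 1.43 FPKM), so the control libraries were the ones that stood low. The log2FC was 0.73 (SE 0.11), with a limma adjusted p of 0.0701 from 18 libraries, 0.135 from 9 and 0.0228 from 15. Tceal9 (chrX:136245079-136247139, plus strand) was at 28.02 to 29.34 FPKM in control, 21.1 to 21.3 FPKM in the AOS-transplant group and 23.2 to 25.9 FPKM in the control-transplant group (−0.33, SE 0.15, adjusted p = 0.0444 from 9 libraries). Apln, which encodes the peptide ligand apelin, was at 3.43, 5.85 and 6.47 FPKM in control and at 1.63 to 2.57 FPKM in the 6 transplant libraries (−0.95, SE 0.31, adjusted p = 0.596).

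Among genes higher with transplant and without overlap, Fitm1, a protein of lipid droplet formation, was at 5.80 ± 1.09 FPKM in control, 9.38 ± 0.605 in the AOS-transplant and 9.07 ± 1.16 in the control-transplant group (SD, n = 3; 0.60, SE 0.11, limma adjusted p = 0.157). Eef2k, the kinase of an elongation factor of translation, was at 3.58 ± 0.525, 5.29 ± 0.488 and 5.82 ± 0.672 FPKM (0.52, SE 0.10). Prss45, a serine protease gene, was at 32.9, 48.0 and 27.7 FPKM in control, 56.8, 52.1 and 62.4 FPKM in the AOS-transplant group and 55.7, 61.4 and 53.2 FPKM in the control-transplant group (0.67, SE 0.19, limma adjusted p = 0.507). Its transplant libraries also lay above all STZ (29.9 to 42.4 FPKM) and STZ + AOS libraries (39.8 to 44.5 FPKM), while AOS reached 66.4 FPKM. Uqcrq and Ndufs6, subunit genes of respiratory complexes, were higher by 0.53 and 0.46, but the oxidative phosphorylation list (34 tested) had a median of 0.013, with 3 genes higher without overlap (8.82%, against 2.85% of all genes). Gdf9, a growth factor gene, was at 0.31, 1.71 and 0.29 FPKM in control and 2.35 to 4.64 FPKM in the transplant libraries (1.42, SE 0.32, adjusted p = 0.351). It starts on the plus strand at chr11:53431023-53437904, next to Uqcrq on the minus strand at chr11:53427922-53430831, and reads from such neighbours may not be separable, as no strand setting is given. Ifi27l2a, an interferon-induced gene, was at 2.57 to 2.95 FPKM in control, 3.07 to 6.21 FPKM in the AOS-transplant group and 6.07 to 11.9 FPKM in the control-transplant group (0.96, SE 0.49).

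Germ cell and Sertoli cell genes differed little on the median from control in both transplant groups. The list medians were 0 for 28 elongating spermatid genes, −0.002 for 29 round spermatid genes, 0 for 18 spermatogonial genes and 0.06 for 32 Sertoli cell genes. None of the first 3 lists held a gene without overlap. Of 39 meiotic genes Sycp2 and Meiob were lower without overlap (5.13%, against 2.26% of all genes), with a median of −0.069, and of the Sertoli genes 3 were higher (9.38%, against 2.85% of all genes), Cldn11 of the tight junction among them, and 1 lower (3.12%, against 2.26%).

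Prm1 was at 13687, 13051 and 11650 FPKM in control, 13613, 13667 and 15122 FPKM in the AOS-transplant group and 13793, 12976 and 14591 FPKM in the control-transplant group (log2FC 0.13, SE 0.15), a sign that turned after quantile normalization (−0.05). Prm2, Tnp1 and Tnp2 differed by 0.07 (SE 0.16), 0.07 (SE 0.14) and 0.08 (SE 0.14), the last pair by 0 after quantile normalization. The protamine and transition protein genes together took 7.35 ± 0.44% of the FPKM sum in control, 7.94 ± 0.47% in the AOS-transplant and 7.57 ± 0.6% in the control-transplant group (SD, n = 3). The pooled difference of 0.41 percentage points gave p = 0.274 in a two-sided exact permutation test over 84 splits, which can reach 0.0238.

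Genes of earlier stages and of Sertoli cells were measured next. Acrv1, of the acrosome of round spermatids, was at 298.9 ± 9.18 FPKM in control, 272.0 ± 21.6 in the AOS-transplant and 271.0 ± 3.97 in the control-transplant group (SD, n = 3; −0.14, SE 0.06). Sycp3, of the meiotic chromosome axis, differed by −0.17 (SE 0.08) and Stra8, a gene of meiotic entry, by 0.22 (SE 0.13). Clu, a secreted Sertoli cell protein, was at 483.7 ± 29.3, 489.9 ± 4.35 and 509.5 ± 30.5 FPKM in the 3 groups (0.05, SE 0.07), and the Sertoli transcription factor genes Sox9 and Wt1 differed by 0.20 (SE 0.12) and −0.03 (SE 0.05). All these genes overlapped between transplant and control libraries.

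**Figure D5:**
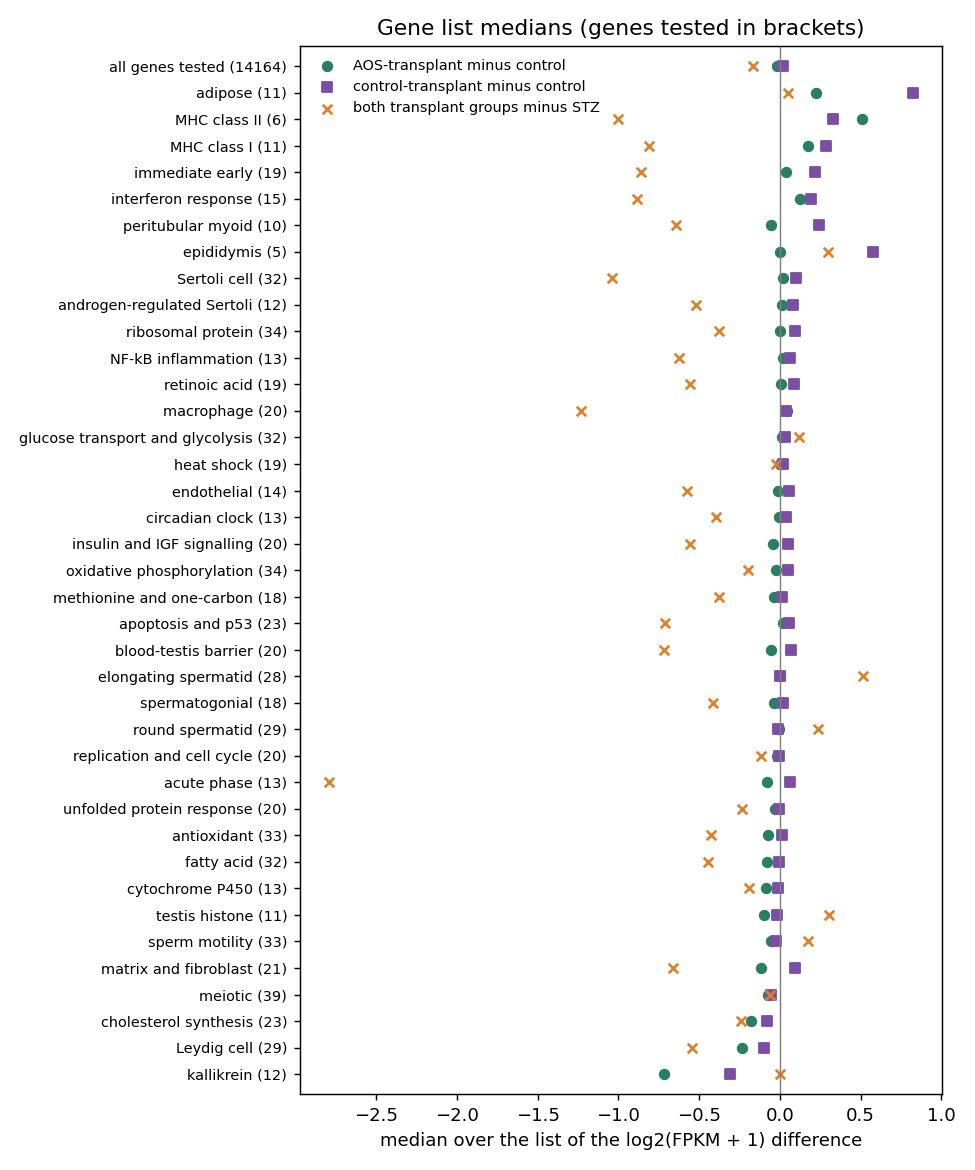
Median difference on the log2(FPKM + 1) scale (x axis) over each gene list with at least 5 tested genes (y axis, number of genes in brackets), for the AOS-transplant group against control (circles), the control-transplant group against control (squares) and both against STZ (crosses). Against control the germ cell lists lie near 0 and the kallikrein list is lowest (−0.716 and −0.31). Nothing is read from that place, as Klk1b22 and Klk1b16 passed the filter only through control and AOS libraries. Against STZ the Sertoli cell and macrophage lists lie at −1.04 and −1.23. Nothing is read from the macrophage value, as Cd163 and Itgam passed the filter only through STZ libraries.

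The same testes stood far from those of mice given STZ without transplant. Against STZ 8529 of 14164 genes were called (60.2%), 1990 higher (14%) and 6539 lower (46.2%) in the transplant groups, with a median of all genes of −0.16. The direction depended on the scaling: 6575 were higher and 2916 lower after median centring, and 4611 and 3467 after quantile normalization, with medians of 0.17 and 0.06. The 4 lists given next kept their direction under these scalings, whereas the meiotic list turned (median −0.06 as deposited, 0.28 after median centring and 0.01 after quantile normalization). Sertoli cell genes were lower in 30 of 32 (26 and 27 after median centring and quantile normalization) and higher in 0, and macrophage genes were lower in 18 of 20 (15 and 15). Among the latter, Cd163 and Itgam reached 1 FPKM only in STZ libraries and so passed the filter only where they are high. Nothing is therefore read from the macrophage counts. Elongating spermatid genes were higher in 26 of 28 (28 and 17) and round spermatid genes in 26 of 29 (29 and 19). Clu fell by 1.49 on the log2 scale relative to STZ (log2FC −1.49, SE 0.07, limma adjusted p = 6.74e-10), Wt1 by 1.23 and Lyz2 by 1.76, while Prm2 was higher by 0.97 (adjusted p = 9.58e-05). No library of the transplant groups reached any STZ library for Clu, Wt1 or Lyz2.

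Against STZ + AOS, that is STZ with AOS given directly, 0 of 14164 genes were called (0%; 1058 at an unadjusted p under 0.05; smallest adjusted p 0.112), and 50 (0.353%) when the STZ libraries were left out of the fit. By the smallest p, the lysozyme gene Lyz1, the brain-type creatine kinase gene Ckb, Nrep, Prkar2b and Pcp4l1 were higher with transplant. Lyz1 was at 1.67 to 1.75 FPKM in the AOS-transplant group, 1.19 to 2.15 FPKM in the control-transplant group and 0.68 to 0.79 FPKM in STZ + AOS (0.62, limma adjusted p = 0.112). Ckb was at 3.15 to 4.01 FPKM, 5.53 to 6.09 FPKM and 2.26 to 2.97 FPKM in these groups (0.64, adjusted p = 0.112). Iglon5, Aplp1, 4930486L24Rik, and 4921511M17Rik with Samt1, which carry identical values in all 18 libraries, were lower with transplant. Of these, 4930486L24Rik reached 1 FPKM only in STZ and STZ + AOS libraries and so passed the filter only where it is high. Nothing is therefore read from its difference or its place among these genes. Aplp1, an amyloid precursor-like gene, was at 5.85 to 7.43 FPKM in the AOS-transplant group, 5.94 to 6.37 FPKM in the control-transplant group and 9.53 to 10.8 FPKM in STZ + AOS (−0.61, adjusted p = 0.309; 0.00667 with 15 libraries).

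Between the transplant groups themselves 0 of 14164 genes were called (0%; 866 at an unadjusted p under 0.05; smallest adjusted p 0.139). The smallest p higher in the AOS-transplant group belonged to LOC108168650, Ndufaf2, LOC108168589, Rassf7 and Mns1, and those lower to Imp3, Gm40363, Gm46403, Lum and Gm46911. Ndufaf2, an assembly factor of respiratory complex I, was at 41.5 to 46.7 FPKM in the AOS-transplant group and 32.3 to 37.0 FPKM in the control-transplant group (0.35, limma adjusted p = 0.344). Imp3, of ribosome assembly, was at 9.64 to 12.7 FPKM and 15.3 to 16.4 FPKM (−0.51, adjusted p = 0.139), and Lum, a matrix proteoglycan gene, at 1.24 to 1.55 FPKM and 2.49 to 2.72 FPKM (−0.60, adjusted p = 0.315).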

How the data were processed

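Whole-testis RNA was sequenced in 18 libraries, 6 groups of 3. The authors deposited 1 table of values per gene and library, whose header names no unit. The deposited values were taken as FPKM because the steps of low values fall with transcript length, and RPKM cannot be told apart. Bowtie 0.12.2 (an aligner of short reads) and mm10 appear in the submitters' processing notes, the counter and annotation being not given in the sources used here. Tests used limma 3.58.1 in R 4.3.3: limma-trend on log2(FPKM + 1), pseudocount 1, for genes with at least 1 FPKM in at least 3 libraries, with all 18 libraries in 1 model of group means without a block, two-sided, with Benjamini-Hochberg adjustment over all genes tested and a threshold of 0.05. Intervals are 95% intervals of the moderated difference. The fit was tested on simulated data. Members, gene lists, the naming rule and tests were chosen with earlier results of these data known. The rule named the 12 genes with the largest shift in each direction and up to 3 per list among genes called (none were), 16 marker genes always given, and for the comparisons between transplant groups and with STZ + AOS the 5 smallest p in each direction. Gene coordinates are from GENCODE M21 (GRCm38). Alternatives were the pseudocount, the filter, the scaling, the libraries fitted, the replicate block and each library left out.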

Additional observations from a re-analysis of the deposited data

Results flagged for a closer look

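LOC108168589, a predicted gene, lay on opposite sides of control in the transplant groups. It was at 4.66, 5.24 and 5.07 FPKM in control, at 5.87, 7.72 and 6.67 FPKM in the AOS-transplant group and at 3.91, 2.23 and 4.43 FPKM in the control-transplant group, so that all 3 libraries of one group were above and all 3 of the other below every control library. The difference between the transplant groups was 0.81 on the log2 scale and was not called (limma adjusted p = 0.436). In 37 of the 14164 genes tested (0.261%) the groups fell on opposite sides in this way.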

How the results depend on the processing

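Counts of called genes near 0 moved with the processing. For both transplant groups against control, 0 became 1 with a pseudocount of 0.1, 2 without a filter, 4 after quantile normalization, 3 after median centring, 7 with the compared libraries only, 5 with 15 libraries, 1 without the 3 libraries with epididymal transcripts, and 0 to 2 with each library left out; the counts of genes shifted alike were the same numbers. The fit of 15 libraries and the one without the epididymal 3 were chosen after seeing the data. The 1 gene called without the epididymal 3 was Klk1b22, which passed the filter only where it is high, so nothing is read from that call. For the AOS-transplant group against control the count was 1 without a filter, 8 with the compared libraries only, 6 with 15 libraries, 2 without the epididymal 3 and 0 to 1 with each library left out, and for the control-transplant group 1, 0, 4, 2 and 0 to 3. Between the transplant groups it was 1 without a filter, 4 without the epididymal 3 and 0 to 3 with each library left out. Against STZ + AOS it was 1 with a pseudocount of 0.1, after quantile normalization and after median centring, 23 with the compared libraries only, 50 with 15 libraries, 2 without the epididymal 3 and 0 to 1 with each library left out. The cause was not tested. Against STZ it stayed between 5865 and 9522 (6716 to 9377 with each library left out). With Grb7, the call appeared without control replicate 1 (0.83, adjusted p = 0.0345 in limma) and without control-transplant replicate 1 (0.79, adjusted p = 0.0223). The number of genes without overlap ranged from 860 to 1570 with each library left out, where fewer libraries have to be kept apart. Of 61 genes with a log2FC against control, 1057 of 1090 alternative values kept direction and call, 24 passed the threshold and 9 changed sign: Klk1b8 without control replicate 1 (0; −0.09 to 0 with each library left out), Clu without the epididymal 3 (−0.01), Prm1 after quantile normalization (−0.05), Prm2 without control replicate 2 (−0.01; −0.01 to 0.16), Tnp1 and Tnp2 after quantile normalization (0 and 0), and LOC108168589 without AOS-transplant replicate 1 (0.01), without control-transplant replicate 2 (0.08; −0.11 to 0.08) and without the epididymal 3 (0.05). The protamine share difference stayed between 0.244 and 0.662 percentage points. Same-numbered libraries correlated at −0.21 to 0.2 in their deviations from group means, so the numbers were not taken as pairs. With the replicate block 0 genes were called in each comparison with control, between the transplant groups and against STZ + AOS, and 8419 against STZ. Depth was only estimated roughly from the steps of low values. With 3 libraries a group, the 95% interval against control stayed within a 1.5-fold change of FPKM + 1 for 93.8% of the genes, and smaller differences may have gone uncalled.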

Other observations

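Several genes at which the control libraries differed from the transplant libraries also differed in the AOS group, which had received neither STZ nor a transplant. Klk1b21 was at 4.92, 9.28 and 6.21 FPKM there, against 15.95 to 26.5 FPKM in control. Msmo1 was at 12.8 to 15.3 FPKM and Fitm1 at 7.33 to 9.65 FPKM with AOS alone, against 20.6 to 24.7 FPKM and 4.86 to 6.99 FPKM in control. Bhmt was at 46.9, 64.6 and 39.3 FPKM with AOS alone, which overlapped its control range of 49.97 to 65.35 FPKM. The means were 50.3 FPKM with AOS alone and 59.1 FPKM in control. These values are a description, with no test.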
